A study of Drosophila melanogaster with 2 samples.

Results

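The engrailed (en, FBgn0000577) and invected (inv, FBgn0001269) locus of Drosophila melanogaster was examined for peaks of Spps, a DNA-binding zinc finger factor related to Sp1, in chromatin from whole embryos aged 0 to 12 h. The locus holds 2 of the 13945 protein-coding genes annotated on the 6 chromosome arms that carry peaks. Its members are the peak summits from 20 kb before inv to 20 kb after en, chosen by position alone, on chromosome 2R from 11454465 to 11548210 (dm6, 93.7 kb). In that window lay 2 of the 3260 summits of the list thresholded for reproducibility (IDR, for irreproducible discovery rate), 30 of the 30000 summits of the list called on both replicates together (the joint list), and 27 of 30000 in each replicate's own list.

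The samples were 2 biological replicates of 1 group, so there was no contrast between conditions and no control genotype among them. Both came from a transgenic line in which Spps is fused to GFP at its C-terminal end, and an anti-GFP antibody was used to precipitate it from sonicated chromatin. The sources used here do not give the promoter that drives the fusion. Both replicate lists were called against the same control, so agreement between them is not free of what that control contributes. Read counts are not part of the peak lists, and the depth behind each peak is unknown.

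en and inv are neighbouring, related homeobox genes. en is a segment polarity gene: in the embryo it is expressed in stripes of cells that form the posterior compartment of each segment, and inv is expressed in much the same cells under shared enhancers. In other cells both genes are held silent by Polycomb group proteins, which are recruited through Polycomb response elements (PREs). PREs just upstream of en were used to define pairing-sensitive silencing, the assay that gave Spps its name (Sp1-like factor for pairing-sensitive silencing), and further PREs have been mapped around the inv promoter. Whole embryos hold cells with the locus active and cells with it silent, and strong binding in few cells cannot be told apart from weak binding in many.

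inv runs rightward from 11474465 to 11509695 (35.2 kb) and has 2 annotated transcription start sites (TSSs), 1243 bp apart. en runs leftward from 11528210 to 11524006 (4.21 kb) with 2 TSSs 327 bp apart, so that the genes are transcribed toward each other across a 14.3 kb interval. The only other protein-coding gene in the window is E(Pc) (Enhancer of Polycomb), which encodes a subunit of a chromatin acetyltransferase complex. It lies at the left edge, with all but its 5′ end inside the window. Throughout, rank 1 is the highest signal of a list, signal is the value deposited by the authors' peak caller on a scale that differs between lists, and summits are taken as the same site when they lie within 200 bp.

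**Figure D1:**
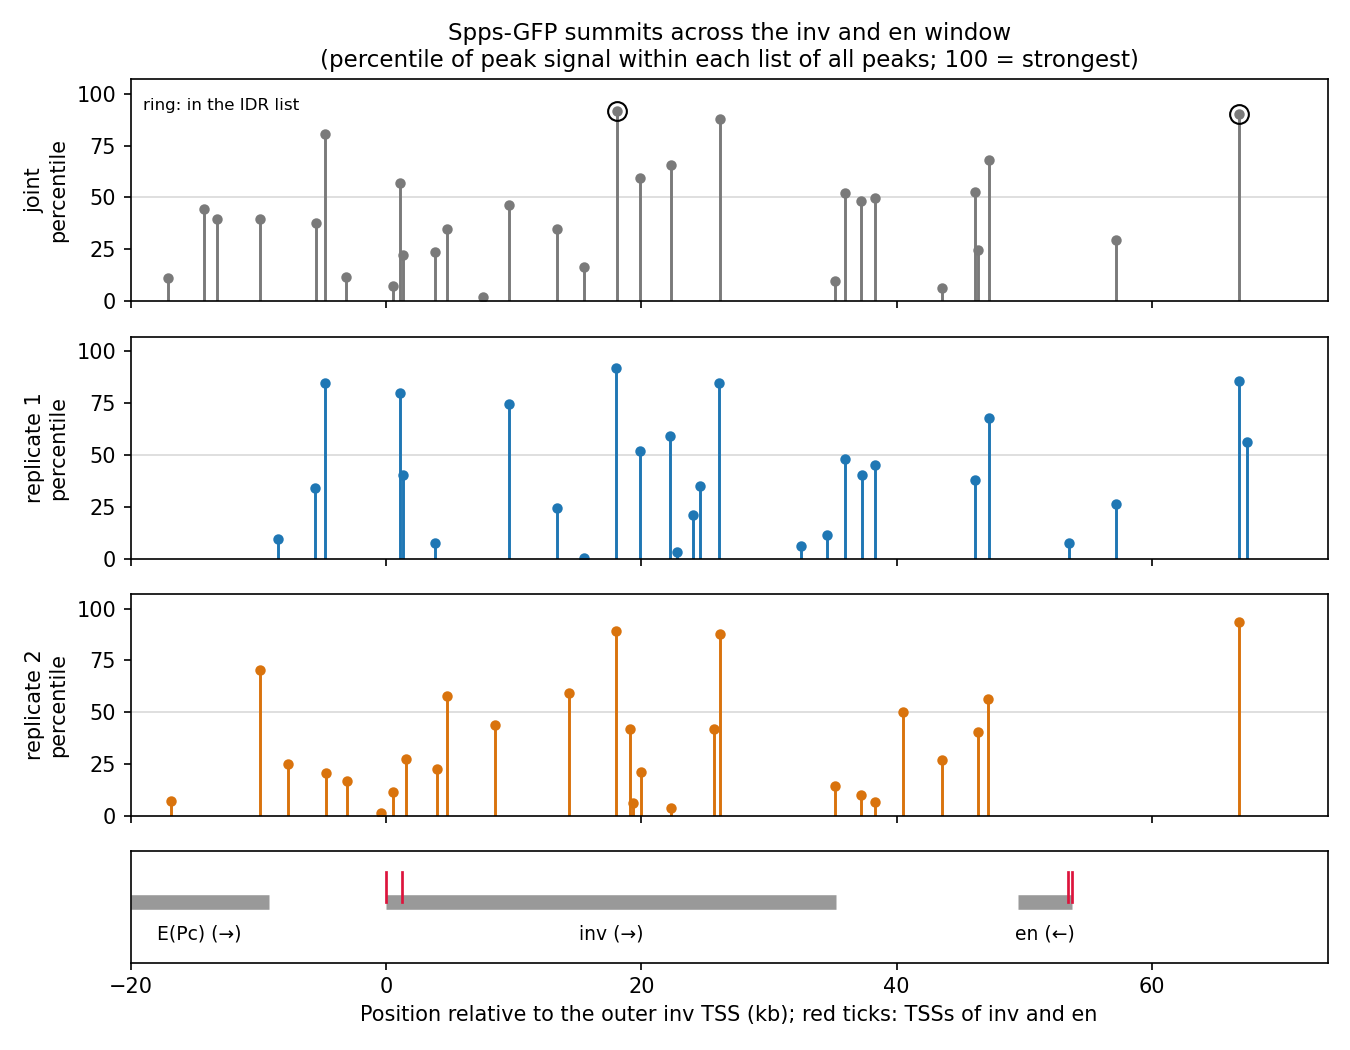
Percentile of peak signal within its list (vertical axis, 100 is the strongest peak) for every summit of the window, by position relative to the outer inv TSS (horizontal axis, kb), in the joint list and in replicates 1 and 2, with genes as grey bars and TSSs as red ticks. The 2 ringed summits are those in the IDR list; en itself holds 1 summit, a weak one of replicate 1.

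Over all listed summits, strong and weak, Spps-GFP summits were denser in inv and between the genes than over the chromosome arms. The body of en held 1 at most. The body of inv held 14 joint summits, 15 of replicate 1 and 14 of replicate 2, or 39.7, 42.6 and 39.7 per 100 kb. The interval between the genes held 7, 5 and 6 (48.9, 34.9 and 41.9 per 100 kb). The body of en held 0 joint summits, 1 of replicate 1 and 0 of replicate 2, and a stretch of its length would hold 0.94 at the average density of all arms. The 20 kb beyond en held 2, 3 and 1 (10, 15 and 5 per 100 kb), and the 20 kb before inv held 7, 3 and 6. Over all arms each of these lists averaged 22.4 summits per 100 kb, so both replicates were above that density in inv and in the interval, and both were below it beyond en, where the average would give 4.48 summits. In the 20 kb before inv the replicates stood on either side of it.

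Most of these summits were weak ones. The median rank in the window was 18135 in the joint list, 17964 in replicate 1 and 21896 in replicate 2, each beyond the middle of its list, with the best at 2498, 2428 and 1995. A q-value of 0.05 or below, as the authors' caller gave it, was held by 6 of the 30 joint summits, 7 of 27 in replicate 1 and 4 of 27 in replicate 2. Over whole lists that threshold was met by 34.7%, 33.5% and 32.5% of summits. The window's share was below that of the list in all 3, a difference that was not tested. Among the 10000 highest-signal peaks of each list, the window held 5.33 joint summits per 100 kb, 7.47 of replicate 1 and 4.27 of replicate 2. Against 10000 peaks over all arms (133.9 Mb), the joint list and replicate 2 were below the mean density and replicate 1 about at it. For the window as a whole, the higher density of the full lists was thus not seen among their strongest peaks. Densities of inv and of the interval were not taken at this cut. In replicate 1, inv had summits at ranks 2428, 4612, 6049 and 7616, and the interval 1 at rank 9660. In replicate 2, inv had ranks 3205 and 3628, and the interval had none within the cut. In the joint list, inv had ranks 2498 and 3597, and the interval rank 9538.

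The strongest joint peak of the window lay inside inv, in its longest intron (27.7 kb), which held 10 joint summits and 11 in each replicate. It spanned 11492344 to 11492719, with its summit 16824 bp downstream of the inner inv TSS. Its signal was 118 in the joint list (rank 2498), 76.0 in replicate 1 (rank 2428) and 41.2 in replicate 2 (rank 3205), and it was in the IDR list. The replicate summits were 3 bp apart.

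The other IDR peak lay on the far side of en, in intergenic sequence from 11541094 to 11541469, its summit 13072 bp upstream of the outer en TSS. Its joint signal was 108 (rank 2890). In replicate 1 it had a signal of 53.8 (rank 4335) and in replicate 2 of 54.3 (rank 1995), where it was the strongest summit of the window. The replicate summits were 7 bp apart. Both IDR peaks were in the lower part of that list (ranks 2498 and 2890 of 3260), whose last peak had a signal of 101.

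A further site fell just short of the IDR list. It spanned 11500405 to 11500780 in the same inv intron, with its summit 24885 bp downstream of the inner inv TSS, and had a joint signal of 94.3 (rank 3597, where the IDR list ends at 3260). Replicate 1 gave it a signal of 51.6 (rank 4612) and replicate 2 one of 38.3 (rank 3628). These 3 sites were the only ones in the window that were among the 10000 highest-signal peaks of both replicates, and the only ones with q of 0.05 or below in both. The share of all joint summits that met either rule was not taken.

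In all, 10 of the 30 joint summits (33.3%, exact 95% interval 17.3 to 52.8) had a summit of both replicates within 200 bp. Over the whole joint list that share was 50.2%, and 44.2% outside the IDR list, both inside the interval. Counted singly, 19 of the 30 had a replicate 1 summit within 200 bp (77.2% of all joint summits did) and 18 a replicate 2 summit (66.5% of all). Of those not in both, 9 were matched in replicate 1 alone, 8 in replicate 2 alone and 3 in neither (6.43% of all joint summits were in neither). Read from the replicates, 10 of 27 summits of each had a partner in the other (37.0%), against 49.9% and 50% over the whole lists. The interval covers counting over summits, which are not replicates.

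**Figure D2:**
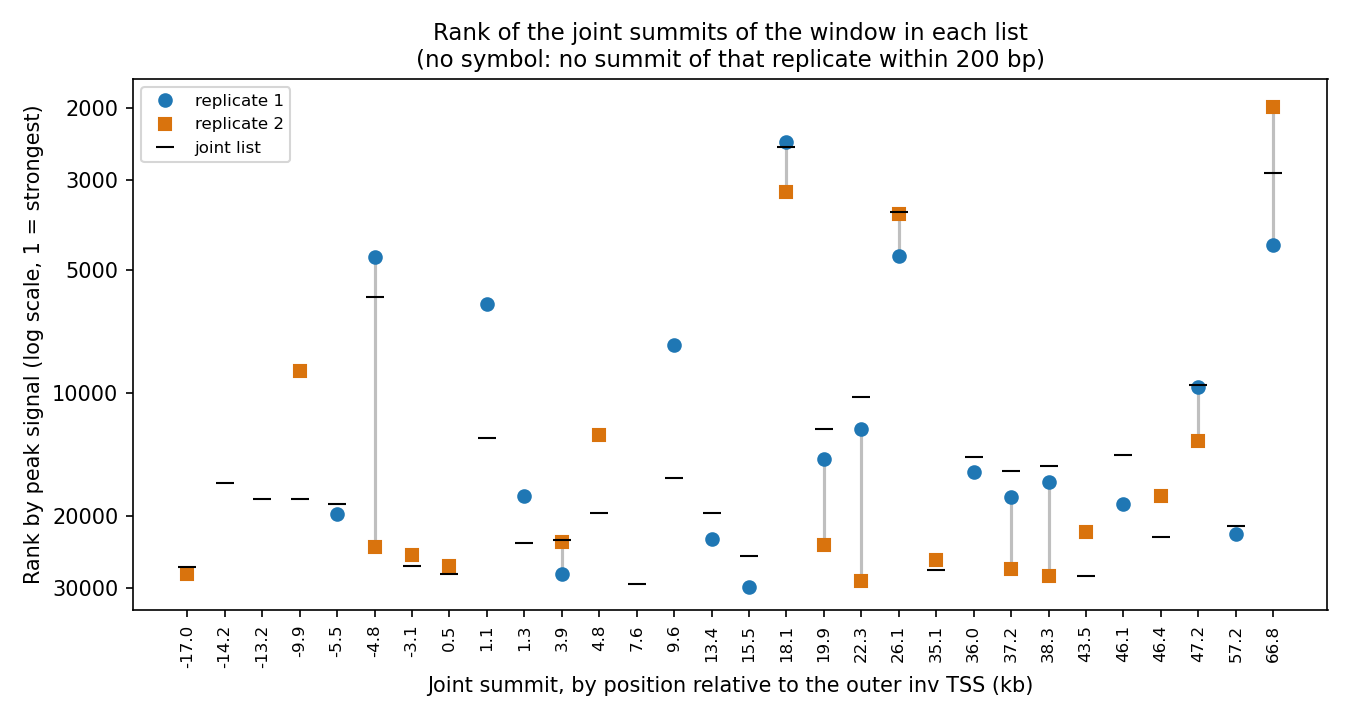
Rank by signal (vertical axis, log scale, 1 is the strongest) of each of the 30 joint summits of the window in the joint list and in each replicate, ordered by position relative to the outer inv TSS (horizontal axis, kb). Grey lines join the 10 sites matched in both replicates; 3 of them rank at 4612 or better in both.

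The 10 sites seen in both replicates comprised 5 in inv, all in introns, 3 between the genes, 1 before inv and 1 beyond en; none lay in en. Their replicate summits were 3 to 139 bp apart. Replicate 1 gave the better rank at 7 and replicate 2 at 3. The median absolute log2 ratio of the replicate ranks was 0.64, close to the 0.63 over all 15057 joint summits seen in both, whose 90th percentile was 1.72. Apart from the 3 strongest sites, the best placed in both replicates was in the interval, 6170 bp downstream of the inner en TSS, with a signal of 32.5 (rank 9660) in replicate 1 and 18.8 (rank 13076) in replicate 2.

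Of these 10 sites, the one before inv differed most between replicates. It spanned 11469502 to 11469877, 4775 bp upstream of the outer inv TSS, with a joint signal of 69.4 (rank 5800). Replicate 1 gave it a signal of 51.4 (rank 4645) and replicate 2 one of 13.6 (rank 23778), a log2 rank ratio of 2.36, beyond the 90th percentile of all shared summits. Its joint rank was close to that of replicate 1.

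The next paired sites were weak in at least 1 replicate. Inside the long inv intron, the sites 18669 and 21047 bp downstream of the inner TSS ranked 14477 and 12257 in replicate 1, and 23559 and 28799 in replicate 2. The site 2626 bp downstream ranked 27786 and 23113 in replicates 1 and 2. In the interval, sites 16216 and 15114 bp downstream of the inner en TSS ranked 17964 and 16502 in replicate 1 and 26978 and 28005 in replicate 2. All 5 ranked 23113 or lower in replicate 2.

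At the inv promoter the replicates differed in strength and position. The joint list placed a summit at 11475558, in a 5′ UTR exon of the transcript that starts farther upstream and 150 bp upstream of the inner TSS, with a signal of 41.2 (rank 12868). Replicate 1 had its summit 123 bp upstream of that TSS with a signal of 43.5 (rank 6049). Replicate 2 had none within 200 bp of the joint summit, and its nearest to the inner TSS lay 293 bp downstream with a signal of 14.3 (rank 21737). A second joint summit, 88 bp downstream of the inner TSS (rank 23259), was matched in replicate 1 (signal 22.3, rank 17852). It was not matched in replicate 2, but only just: that replicate's summit 293 bp downstream of the TSS lay 205 bp from it, against a limit of 200 bp.

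The outer inv TSS had weaker summits. Replicate 2 placed one 385 bp upstream of it with a signal of 11.9 (rank 29594), close to the end of its list. The joint list placed one 520 bp downstream of it (rank 27726), matched in replicate 2 (rank 26445). The nearest of replicate 1 lay 1120 bp downstream, the one described at the inner TSS.

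No list placed a strong summit at the en promoter. Replicate 1 had 1 summit between the en TSSs, 65 bp upstream of the inner one, with a signal of 16.9 (rank 27779), near the lower end of its list, where the last peak had a signal of 16.1. Replicate 2 had no summit nearer than 6263 bp from an en TSS, and the joint list none nearer than 3409 bp. That joint summit lay upstream of en, with a joint signal of 30.1 (rank 21123) and a replicate 1 signal of 19.6 (rank 22059), and was not matched in replicate 2.

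The sequence directly before en, where its classic PREs lie, held no summit in any list. In the 2 kb before the outermost TSS, 68.2% of protein-coding genes had a summit of at least 1 list, 13.8% one of the IDR list, 56.6% one of the joint list, 56.8% one of replicate 1 and 55.5% one of replicate 2. The gene en had none and inv had only the weak one of replicate 2. This window was chosen after the data were seen. All 3 full lists stop at 30000 peaks, so a missing summit says that no peak there ranked high enough to be listed, not that Spps was absent.

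The widest gap between joint summits contained en, but others were nearly as wide. Neighbouring joint summits were a median of 2.38 kb apart, and the widest gap, 9.91 kb from 11521713 to 11531619, held all of en and the 2 kb before it. The next widest, 9.66 kb upstream of en and 9.02 kb from within inv to its 3′ end, did not contain en. In replicate 2 the widest gap was 19.7 kb and also held both, against a median of 2.28 kb. In replicate 1 the weak summit at the en TSS divided that stretch, and its widest gap, 9.67 kb, lay farther upstream of en.

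Read as promoter calls (a summit within 500 bp of any TSS), inv was called in the joint list and in both replicates, and en in replicate 1 alone. Of protein-coding genes, 55.1% were called in the joint list, 55.0% in replicate 1 and 51.8% in replicate 2, so a call in these lists is the common state. Neither gene was called in the IDR list, as for most genes (13.6% called). With 2 kb to either side of the gene, inv had a summit in all 4 lists and en in replicate 1 alone. The background for that rule was 26.0% in the IDR list and 76.3%, 77.5% and 77.7% in the joint and replicate lists. A longer gene has more room for a summit by this rule. inv is 35.2 kb long, en 4.21 kb and the median gene 2.17 kb, and length was not accounted for.

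Left of inv, E(Pc) held 4 joint summits within the window, 3 in coding exons and 1 in a 3′ exon. None was seen in both replicates, and 2 were in neither. The strongest replicate value was at the 3′ end of E(Pc), 32 bp from the joint summit at 11464598, where replicate 2 had a signal of 23.2 (rank 8804) and replicate 1 no summit within 200 bp.

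Set beside 3 other loci known for PREs, each with the same 20 kb to either side, the en and inv locus had 32.0 joint summits per 100 kb, and 28.8 in each replicate. The bithorax complex, which holds the posterior Hox genes Ubx, abd-A and Abd-B, had 25.9 in the joint list, 30.4 in replicate 1 and 25.6 in replicate 2. The Antennapedia complex of anterior Hox genes had 22.2, 24.9 and 25.1, and the locus of the paired Polycomb group genes ph-p and ph-d had 39.9, 39.9 and 35.1. In the joint list en and inv stood second of the 4, and in replicate 1 the bithorax complex was above it. Without the flanks that order turned: in replicate 1 en and inv had 39.1 and the bithorax complex 27.2. No test of these differences was made.

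Strength ordered the loci differently from density. The best joint rank was 2498 at en and inv, 756 in the bithorax complex, 214 in the Antennapedia complex and 8 at ph-p and ph-d, and the replicates gave the same order (2428, 774, 228 and 5 in replicate 1; 1995, 655, 214 and 9 in replicate 2). In the IDR list en and inv had 2 summits (2.13 per 100 kb), the bithorax complex 7 (1.97), the Antennapedia complex 11 (2.91) and ph-p and ph-d 5 (7.98), against 2.44 over all arms. Without the flanks the IDR densities of en and inv and of the bithorax complex changed order (1.86 and 2.22), and with flanks of 40 kb that of en and inv was above the mean of all arms (2.99, from 4 summits). The windows differ in length, from 62.6 kb at ph-p and ph-d to 378 kb at the Antennapedia complex, and a longer window has more chances of a high rank.

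**Figure D3:**
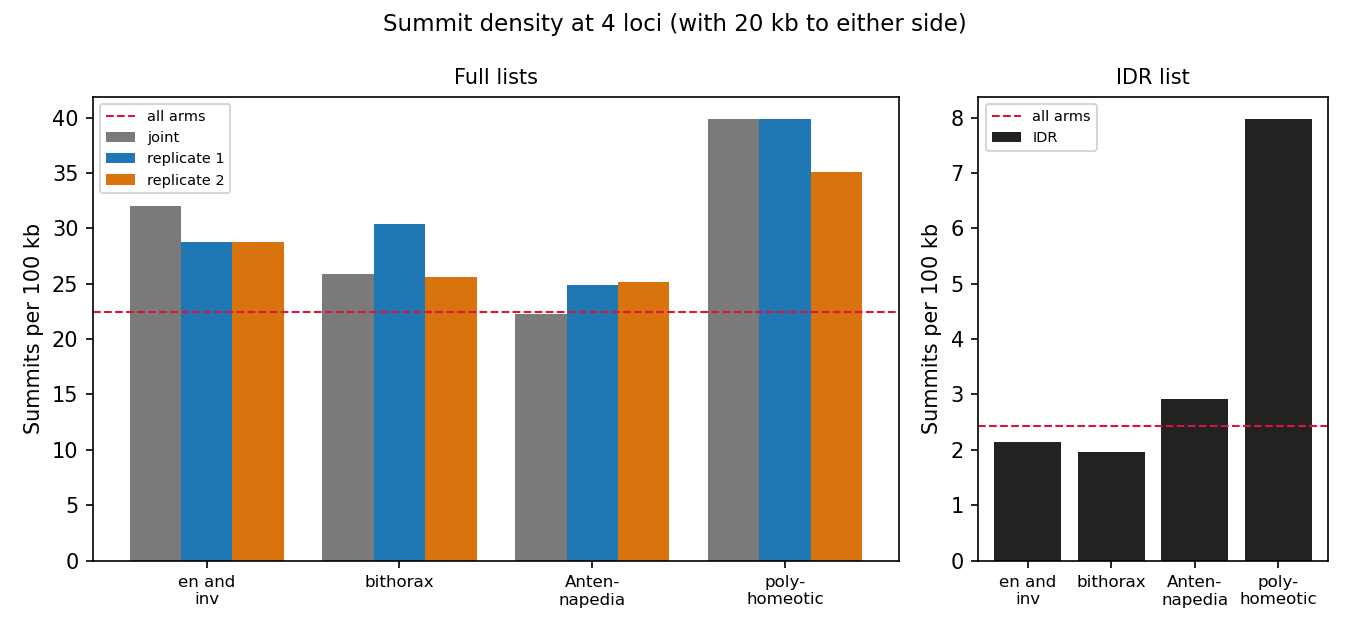
Summits per 100 kb (vertical axes) at the en and inv locus, the bithorax complex, the Antennapedia complex and the polyhomeotic locus, in the 3 full lists (left) and the IDR list (right). The dashed line is the mean over all arms, 22.4 in the full lists and 2.44 in the IDR list. The en and inv locus stands above it in the full lists, but not among each list's 10000 strongest peaks (not drawn). In the IDR list, with 2 summits, the locus stands just below the line, and flanks of 40 kb put it above (2.99).

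Among 25 segment polarity genes, the set in which en acts, inv stood in place 8 in the joint list and in place 9 in each replicate by the strongest summit in the gene or within 2 kb. en was in place 25 in replicate 1 and had no such summit in the other lists. An IDR summit was present at 9 of the 25 (36%, against 26.0% of all protein-coding genes), inv among them. The list's genes are longer, with a median of 9.25 kb against 2.17 kb over all genes, and a longer gene holds more summits. The highest IDR signals were at fz (frizzled, a Wnt receptor; 658), slp1 (sloppy paired 1, a forkhead repressor; 359) and nkd (naked cuticle, a Wnt pathway antagonist; 344), against 118 at inv.

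In the replicates, 25 of the 25 genes had a summit by this rule in replicate 1 and 23 in replicate 2, against 77.5% and 77.7% of all protein-coding genes. The genes with none in replicate 2 were en and por (porcupine, needed for Wnt secretion). With no value of replicate 2 for en, no gene could be ranked by likeness to it. Within 500 bp of a TSS, 2 of the 25 genes had an IDR summit (8%, against 13.6% of all genes), nkd and sgg, the latter encoding the kinase Shaggy; por and sgg were named after their values were seen.

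The genes with ranks most like those of inv were wg, hh and arm, by Euclidean distance between log2 ranks over the 2 replicates, out of the 22 other genes with a summit in both. wg (wingless, the Wnt ligand made in cells next to the en stripe) had best ranks of 3879 and 3360 in replicates 1 and 2, a distance of 0.68. hh (hedgehog, the secreted signal that en-expressing cells send) had 4506 and 4253, a distance of 0.98. arm (armadillo, the fly beta-catenin) had 1904 and 6235, a distance of 1.02. The best joint summits of wg (rank 3573) and hh (rank 3750) were outside the IDR list, as was the second strongest site of inv.

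**Figure D4:**
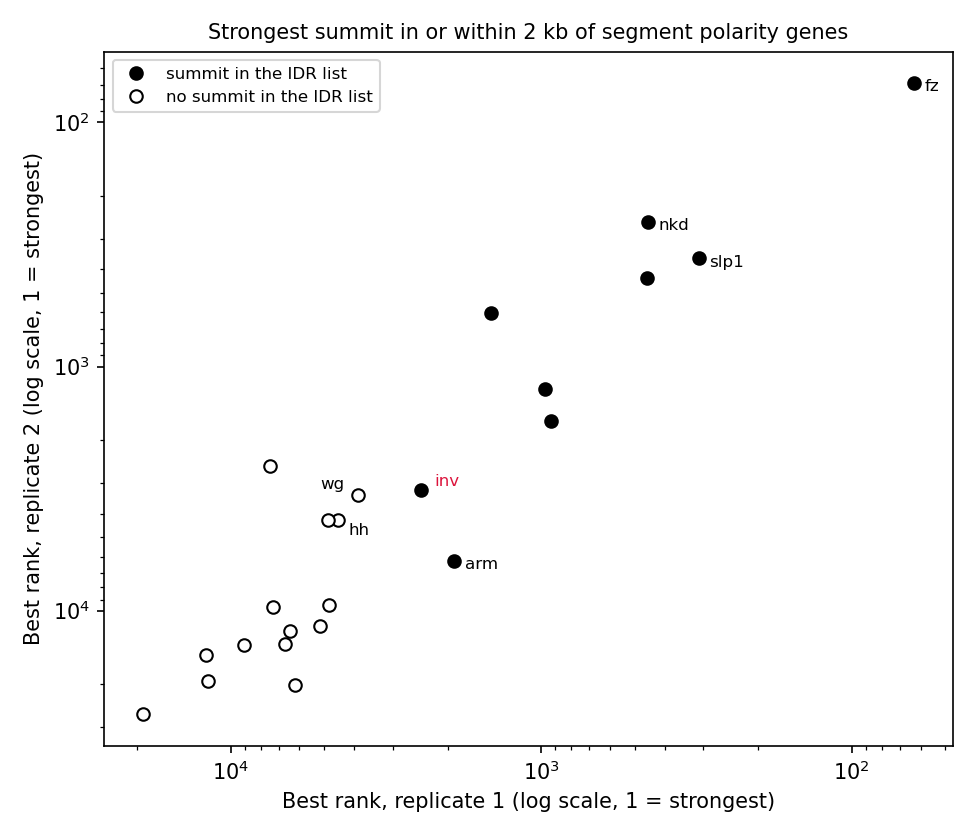
Best rank of a summit in or within 2 kb of each segment polarity gene in replicate 1 (horizontal axis) and replicate 2 (vertical axis), both on log scales with the strongest toward the upper right. inv (red) lies at 2428 and 3205; filled points are the 9 genes with an IDR summit, inv included, and open points those without. en and por have no summit in replicate 2 and are not drawn.

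The sequence within 100 bp of the joint summits was searched for 9 short motifs on both strands. The Sp/KLF core (GGGCGNG, with G or T at the N) occurred at 1 of the 30 summits (3.33%, exact 95% interval 0.0844 to 17.2), against 3.6% of all joint summits. That summit was the one 150 bp upstream of the inner inv TSS, which also held a GAGA, a Dsp1 and a Zeste string. Of the motifs of other PRE-binding proteins, the Pho core GCCAT was at 30.0% (14.7 to 49.4) against 31.2%, the GAGA site GAGAG at 23.3% (9.93 to 42.3) against 22.9%, and a Zeste string (NGAGNG, with C or T at each N) at 33.3% (17.3 to 52.8) against 26.7%. All these shares of all summits lay inside the window's intervals.

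The remaining motifs were also within their intervals. The Dsp1 string GAAAA was at 66.7% (47.2 to 82.7) against 68.2%, the CACCC box at 26.7% (12.3 to 45.9) against 20.1%, the Combgap repeat GTGTGT at 10% (2.11 to 26.5) against 15%, and the BEAF-32 core CGATA at 23.3% (9.93 to 42.3) against 24.8%. The DRE (TATCGATA), which contains the BEAF-32 core, was at 0 of 30, which allows up to 10% (1.94% over all summits). With 30 summits, only large departures could be seen.

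The window's summits held 0 to 4 of the 9 motifs, with a median of 2. The IDR summit in the inv intron had none of the 9 and a GC content of 28.9% within 100 bp. The site just outside the IDR list, in the same intron, had a CACCC box and a Pho core, and the IDR summit upstream of en had a Dsp1 string and a BEAF-32 core. The median GC content was 44.8% over the window's summits (27.9 to 60.7), 39.8% over all joint summits and 32.8% over the IDR list.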

How the data were processed

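Peak lists of Spps-GFP ChIP-seq from 2 biological replicates were used as deposited. Per the labels, chromatin was sonicated, with a size range of 200 to 800 bp, and coordinates are dm6. Which aligner, caller, filters and IDR threshold were used is not given in the sources used here. The deposited peak signal is the value of the authors' caller, in a scale of its own in each list. The deposited −log10 q-value was used only for the threshold of 0.05. The deposited summit offset, the number of bp from peak start, gave summit positions, converted to count from 1. All 3260 IDR peaks were the 3260 highest-signal joint peaks with the same summits and signals, so those lists are not independent of each other or of the replicates.

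Genes came from Ensembl release 115 (BDGP 6.54, dm6 coordinates) without transposable elements, and sequence, used for motif and GC counts only, from the RefSeq copy of the same assembly. A gene was called where a summit lay within 500 bp of any TSS, or in the gene or within 2 kb. Exact (Clopper-Pearson) 95% intervals cover counting only; the limit for a count of 0 is 3 counts. No hypothesis test was made. Members, lists and motifs were chosen with earlier results of these data known. Named were en, inv, genes overlapping the window, every IDR summit and every joint summit seen in both replicates, and segment polarity genes by the 3 highest IDR signals and the 3 ranks nearest to inv; other summits were named after their values were seen. Matching was checked on simulated summits. Alternatives were other flanks, match distances, peak thresholds, TSS rules and motif windows, and, added after the data were seen, the q threshold. Software was Python 3.11.15, NumPy 2.4.6, pandas 2.3.3, SciPy 1.17.1, and matplotlib 3.10.9.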

Additional observations from a re-analysis of the deposited data

How the results depend on the processing

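Of 84 values under alternative settings, 55 kept to within 1.5 times the reported count or density, the spread between replicates or the interval of a share, and 29 did not; none of these comparisons has a test. Keeping the 10000 highest-signal peaks left 5.33 joint summits per 100 kb in the window, 7.47 of replicate 1 and 4.27 of replicate 2. A q of 0.05 or below left 6.40, 7.47 and 4.27. Fewer peaks enter by construction. Over all arms (133.9 Mb) the q threshold kept 10408 joint peaks, 10059 of replicate 1 and 9764 of replicate 2. At either cut the window was not above the mean density of all arms in any of the 3 lists, unlike in the full lists. With a flank of 10 kb the IDR density was 1.36 per 100 kb, since the summit upstream of en then falls outside, and with 40 kb it was 2.99 (4 summits), so that it crosses the mean of all arms (2.44). Sites seen in both replicates numbered 9 with summits within 100 bp, 14 within 500 bp and 13 with peaks overlapping by at least 1 bp. Among the 10000 strongest peaks they numbered 3, and with 1 replicate alone 18 to 19. The share of all joint summits seen in both was taken only at 200 bp over the full lists (50.2%). The counts at the other match rules and at the 10000-peak cut therefore have no background. From the outermost inv TSS alone the nearest summit was 18067 bp away in the IDR list, 520 bp in the joint list and 1120 bp in replicate 1. Among the 10000 strongest peaks the nearest to inv was 4775 bp away in the joint list and 9899 bp in replicate 2, and the nearest to en 6180 bp in replicate 1 and 13078 bp in replicate 2. With a promoter window of 250 bp, 0 of the 2 genes were called in replicate 2. The share of all protein-coding genes was taken only at 500 bp (51.8% in replicate 2), so that count has no background. Without flanks the polyhomeotic locus had 22.1 IDR summits per 100 kb. Within 500 bp of a TSS, 2 segment polarity genes had an IDR summit. Within 50 bp of summits the Pho core and the Zeste strings were each at 13.3% (17.0% and 14.0% over all joint summits). Within 250 bp, the CACCC box, the GAGA site and the BEAF-32 core were each at 50%, the Pho core at 63.3%, the Dsp1 string at 86.7%, the Zeste strings at 66.7% and the Combgap repeat at 36.7%, and the shares over all joint summits moved with them (44.4%, 48.3%, 48.8%, 62.1%, 92.4%, 55.2% and 33.9%). No paired analysis was possible because there is 1 group and no result comes from a test. The depth of the libraries is unknown, and the fixed list length of 30000 limits what a missing summit shows.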
